A study of Mus musculus with 4 samples.

Results

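CTCF sites at the promoters of protein-coding genes were examined in embryonic mouse limbs. A site was an autosomal CTCF peak of replicate 1 that overlapped a CTCF peak of replicate 2 by at least 1 bp. It was taken as a promoter site when its summit, the highest point of the peak, lay within 1000 bp of the start of a protein-coding gene record of GENCODE M21 on mm10. This gave 1748 promoter sites among 20866 shared autosomal sites (8.38%), and the other 19118 shared sites served for comparison. The promoter sites were chosen by the CTCF peak calls and summit positions themselves, so their CTCF folds are a description.

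CTCF is a zinc finger protein that binds a long, directional DNA motif. Cohesin, a ring complex that contains RAD21, extrudes chromatin loops and is halted by CTCF, mostly when it meets the protein from the side that the 3′ end of the G-rich strand of the motif faces. CTCF is best known from the borders of topological domains, but it also binds close to gene starts, where transcription factors and the transcription machinery assemble.

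CTCF and RAD21 were profiled by ChIPmentation, in which immunoprecipitated chromatin is tagged with sequencing adapters by a transposase. The tissue was whole limbs of B6CBAF1 embryos at E12.5. The embryos, called TgN3840 below, were hemizygous for the transgene (TgN(38-40)/Wt), which holds region CS38-40 of the HoxD locus on 1 allele of chromosome 10 and comes from a single transgenic line. They were also homozygous for the deletion of that region on chromosome 2 (del(CS38-40)-/-). There were 2 lists for CTCF and 2 for RAD21. The only wild-type list was a RAD21 list from 1 earlier ChIP-seq library of whole limbs of the same stage, with no replicate. Genotype and method changed together between the TgN3840 and wild-type lists, so their parts cannot be told apart. No wild-type CTCF list was analysed here. The lists held 23829 and 26264 CTCF peaks in TgN3840 replicates 1 and 2, and 4102, 14787 and 20874 RAD21 peaks in TgN3840 replicate 1, TgN3840 replicate 2 and wild type. The files give no read counts, so sequencing depth is unknown, and a site without a RAD21 peak was below the caller's threshold in that list, which is not the same as unbound. Peak lists hold no expression values, so the tissue label was not checked against marker genes.

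The motifs found at the strongest promoter sites and at those with the most divergent RAD21 calls are shown first. Each sequence is the strand that carries the G-rich form of the motif, read 5′ to 3′ from GRCm38 (mm10). The 19 capitals are the best match to a CTCF motif model learned from sites far from promoters, whose most frequent bases read TGGCCACTAGGGGGCGCTA, and 5 bases of flank stand on either side.
Eid2b, chr7:28277638-28277666, plus strand: acatgGCACCCCTAGAGGGCGATAgaggt
Sucla2, chr14:73524852-73524880, plus strand: acttgCAGCCAGGAGAGGGCAGAGcgagg
Nipsnap2, chr5:129724988-129725016, minus strand: gggagCGGCCGCTAGGGGGAGCAGcgtgg
Gins4, chr8:23237878-23237906, minus strand: ccgatTCGCCACAAGACGGCGCTGcctgg
Vps36, chr8:22192796-22192824, plus strand: cccgcCGGCCACCAGGGAGCGCCGctcgc
Hnrnpdl, chr5:100038993-100039021, minus strand: agcgcCTCCCGCCAGGGGGCGCGCcggag
Bptf, chr11:107132230-107132258, plus strand: cgcggCGGCCGCTAGGGGGAGCGCgggag
Faap20, chr4:155249346-155249374, minus strand: cttcaCAGCCCCCAGGGGTCAGGGccgtt
Wdr38, chr2:38998066-38998094, minus strand: cagagTAGCCTCTAGAGGGCGCGCtggcc
The first 5 of these belong to the strongest CTCF sites, Hnrnpdl and Bptf had no RAD21 peak in any list, and Faap20 and Wdr38 had one in all 3. The motif centres of the first 5 lay at -87, -453, -61, -233 and 1 bp from the gene start, where negative values are upstream.

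A pair of promoters is shown from the motif to the last base before the gene start, on the gene's strand. They are the strongest site with RAD21 in all 3 lists and the strongest with none, among those with a motif 40 to 150 bp upstream of the start and no exon between. Both motifs point towards the gene.
Ror1, chr4:100095732-100095790, plus strand: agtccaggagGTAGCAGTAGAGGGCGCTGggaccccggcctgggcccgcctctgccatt
Dnajc11, chr4:151933631-151933690, plus strand: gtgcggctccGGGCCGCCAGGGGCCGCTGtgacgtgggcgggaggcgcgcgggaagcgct
The motif centres lay 40 bp upstream of Ror1, a receptor tyrosine kinase-like protein that binds Wnt5a, and 41 bp upstream of Dnajc11, a mitochondrial protein with a J domain. The Ror1 site had a CTCF fold of 11.5 in replicate 1 and 13.0 in replicate 2. Its RAD21 folds were 8.64 and 9.88 in TgN3840 replicates 1 and 2 and 8.88 in wild type. The Dnajc11 site had higher CTCF folds of 15.2 and 19.5 and no RAD21 peak in any of the 3 lists. A fold is the enrichment at the summit over the local expectation that the peak caller computed, and folds were not compared between lists.

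Promoter sites ranked above the other shared sites by CTCF fold. The median fold was 7.36 at promoter sites and 6.72 at other shared sites in replicate 1, and 9.32 at promoter sites and 8.29 at other shared sites in replicate 2. Within the whole lists, the median promoter site stood at percentile 66.01 in replicate 1 and 69.7 in replicate 2, against 54.0 and 58.5 for the other shared sites. The interquartile range of promoter sites was 5.95 to 9.01 in replicate 1 and 7.17 to 11.6 in replicate 2. The replicates ordered the promoter sites similarly, with a Spearman correlation of 0.71 over 1748 sites, given as a description since the sites share libraries. Of the promoter peaks of replicate 1, 88.6% were shared with replicate 2, and of its other autosomal peaks 89.1%, so promoter peaks recurred about as often.

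Of the 10 strongest promoter sites by mean rank, that of Gm10717 lies in repeats and is given with its neighbours on chromosome 9. The strongest site by mean rank belonged to Sh3gl1, which encodes an endophilin of the endocytic machinery, with folds of 15.9 and 20.9 in replicates 1 and 2. Eid2b, whose product belongs to a family of inhibitors of differentiation, had 15.3 and 19.1. Sucla2, a subunit of succinyl-CoA synthetase of the citric acid cycle, had 17.91 and 18.04. The site of Exosc8, a subunit of the RNA exosome, had 15.5 and 17.9, and it also lay within 1000 bp of the start of Alg5, a glycosyltransferase gene on the opposite strand. Srp9, a component of the signal recognition particle, had 12.7 and 18.6, and Gins4, a member of the GINS complex of DNA replication, had 12.9 and 17.7. Vps36, an ESCRT-II subunit, had 15.4 and 16.3 with a summit 3 bp into the gene. Among the 100 strongest promoter sites, 75 had their summit within 250 bp of the gene start and 73 lay upstream. Over all 1748 promoter sites the median distance to the start was 219.5 bp and 66.1% lay upstream.

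**Figure D1:**
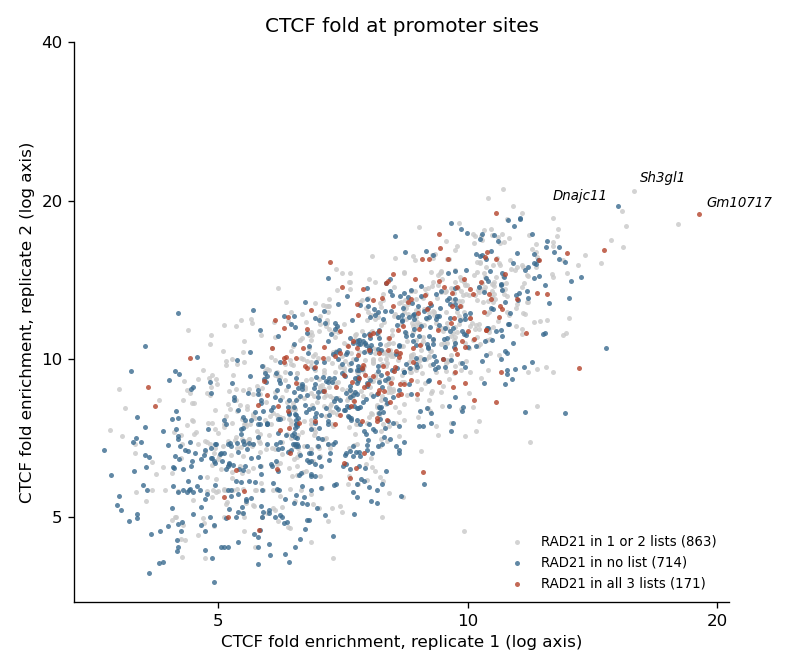
CTCF fold enrichment of each of the 1748 promoter sites in replicate 1 (x axis) and replicate 2 (y axis), both on log axes, with 1 point per site. Blue points are the 714 sites without RAD21 in any list and red points the 171 with RAD21 in all 3. Both classes extend over most of the range, and Dnajc11, with folds of 15.2 and 19.5, stands among the strongest sites without RAD21.

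Promoter CTCF was placed mostly upstream of the gene start. Of the 1748 summits, 1155 lay upstream (66.1%, exact 95% interval 63.8 to 68.3%), 591 downstream and 2 on the first base. The median position was -84 bp, with an interquartile range of -273 to 111 bp. The fullest bin of 50 bp held 219 sites and spanned -100 to -51 bp. Within 200 bp of the start, 608 sites lay upstream and 211 downstream. The upstream share was 67.2% among the 1644 sites with starts on only 1 strand within reach. Another 104 sites lay near starts on both strands, and there the upstream share was 49.04%. Some of these starts belong to overlapping gene records, as with Batf2 and Arl2, where a summit between the starts lies downstream of both. By annotation, 58.2% of summits lay outside protein-coding genes, 18.4% in introns, 13.7% in 5′ UTRs and 5.66% in coding exons. The intervals given here and below cover counting error only, since sites are not replicates.

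**Figure D2:**
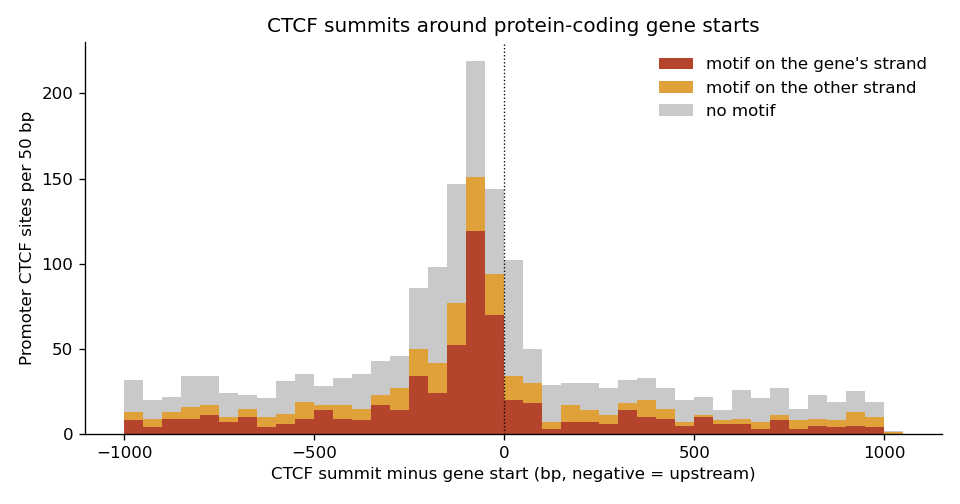
Number of promoter CTCF sites per 50 bp by summit position relative to the gene start in bp, with upstream positions negative. Stacked bars show sites with a CTCF motif on the gene's strand (red), on the other strand (yellow) and with no motif (grey). The counts peak at 219 sites between -100 and -51 bp, where red makes up most of the sites with a motif.

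A CTCF motif was found within 50 bp of the summit at 915 promoter sites (52.3%, 50.0 to 54.7%) and at 53.2% of other shared sites, at a score that 5% of sequences 400 bp away from other sites reached. The same score was reached by 7.38% of sequences 400 bp away from promoter summits. At a stricter score, reached by 1% of flanks, the shares were 37.9% at promoter sites and 46.5% at other shared sites. The promoter motifs were weaker, with a median score of 14.5 among promoter sites with a motif and 16.8 among other sites with one. Directly upstream of the start the motif was more frequent. It was present at 67.5% of the 363 sites at 1 to 100 bp upstream, and at 42.1% of the 152 sites at 0 to 100 bp downstream. The median CTCF fold was also highest in the bin directly upstream, at 8.26 in replicate 1 and 10.7 in replicate 2.

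The motif was oriented with respect to the gene. Of the 915 promoter motifs, 591 carried the G-rich form on the strand of the gene (64.6%, 61.4 to 67.7%), so that its 3′ end pointed in the direction of transcription. The share was 67.7% upstream and 57.3% downstream of the start. It reached 77.1% at 1 to 100 bp upstream, as in Ror1 and Dnajc11 above. Orientation was not used to choose the sites. Sites with the motif along the gene held RAD21 at 9.14% and 38.2% in TgN3840 replicates 1 and 2 and at 56.7% in wild type. With the motif against the gene the shares were 13.3% and 48.5% in TgN3840 replicates 1 and 2 and 59.6% in wild type. The intervals of these shares overlapped in TgN3840 replicate 1 and in wild type, and in TgN3840 replicate 2 they were 34.3 to 42.3% along and 42.9 to 54.1% against the gene.

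RAD21 summits lay more often on the 3′ side of the motif than on its 5′ side. At promoter sites with both a motif and a RAD21 peak, the RAD21 summit was on the 3′ side at 58.8% of 97 sites in TgN3840 replicate 1, 60.1% of 383 in TgN3840 replicate 2 and 75.8% of 528 in wild type. At other shared sites the values were 64.5%, 62.9% and 86.2%. The median offset at promoter sites was 10 and 9 bp in the TgN3840 replicates and 19 bp in wild type. Its interquartile range was -24 to 61 bp and -20 to 46 bp in TgN3840 replicates 1 and 2 and 1 to 29 bp in wild type. The offset at other sites was 20 and 12 bp in the TgN3840 replicates and 20 bp in wild type.

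Promoter sites lay in GC-rich DNA. The window of 100 bp on either side of the summit had a median GC content of 60.2% with 12 CpG dinucleotides at promoter sites, against 49.2% and 3 at other shared sites. The starts of genes with a site were themselves rich in CpG, with a median of 17 in the same window around the start, against 9 at the starts without a site. Of all 20807 autosomal protein-coding genes, 1824 had a site (8.77%). Genes were divided at the quartiles of CpG at the start into 4 classes, and the share was 2.00%, 7.47%, 11.6% and 13.4% from the class with the fewest CpG to the class with the most. By chromosome, the share of genes with a site ranged between 6.76% on chromosome 14 and 12.1% on chromosome 19.

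Short motifs of other promoter factors were counted within 100 bp of the summit on both strands, with no overlaps between them removed. The ETS core CCGGAAG was present at 123 promoter sites (7.04%), at 1.37% of other shared sites and in 9.79% of windows of that length centred on all gene starts, or 12.8% of those centred on the starts of genes with a site. The core of NRF1, CGCATGCG, was present at 31 promoter sites (1.77%), 0.13% of other sites, 1.90% of all starts and 2.58% of starts with a site. TATAAA, the TATA box, was found at 4.46% of promoter sites, 8.495% of other sites and 8.17% of all starts. The YY1 core AAGATGGCG was present at 12 promoter sites (0.69%), 0.55% of other sites and 1.84% of all starts, and the cyclic AMP response element TGACGTCA at 15 (0.86%), 0.15% and 2.02%. The ZNF143 core ACTACAATT was present at 2 promoter sites (0.11%), 0.14% of other sites and 0.34% of all starts. The share of each of these 6 motifs was lower at promoter sites than at all gene starts, by the least for NRF1 in proportion, and the matches are a description of sequence only. Of the 123 sites with the ETS letters, 7.32% and 32.5% had RAD21 in TgN3840 replicates 1 and 2 and 41.5% in wild type. Over all promoter sites these shares were 10.2%, 39.2% and 55.9%.

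Cohesin was called less often at promoter sites than at other CTCF sites in each of the 3 lists. In TgN3840 replicate 1, RAD21 overlapped 178 promoter sites (10.2%, 8.80 to 11.7%) and 18.3% of other shared sites, where all shared sites gave 17.7%. In TgN3840 replicate 2 it overlapped 685 promoter sites (39.2%, 36.9 to 41.5%) and 58.3% of other sites, where all shared sites gave 56.7%. In wild type it overlapped 978 promoter sites (55.9%, 53.6 to 58.3%) and 70.5% of other sites, where all shared sites gave 69.2%. The differences, promoter minus other, were -8.17, -19.1 and -14.5 percentage points. The share in TgN3840 replicate 1 depended on the threshold, since RAD21 peaks with a -log10 q of at least 5 left 5.43% of promoter sites and a difference of -4.62 points. Such peaks gave 30.2% of promoter sites and -19.2 points in TgN3840 replicate 2. With 2 TgN3840 replicates the smallest two-sided p of an exact sign-flip test is 0.5, so the difference was not tested over replicates. Where RAD21 was called, its fold at promoter sites also tended to be lower within a list. The median percentile by fold was 46.4 and 45.4 at promoter sites in TgN3840 replicates 1 and 2 and 49.4 in wild type, against 51.8, 56.7 and 62.9 at other shared sites in the same lists.

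The lower RAD21 share was present at each level of CTCF enrichment. Shared sites were split at folds of 5.996 and 7.615 in replicate 1 into 3 classes of equal size. In the highest class, RAD21 was called at 13.4% of promoter sites and 30.5% of other sites in TgN3840 replicate 1. In TgN3840 replicate 2 these shares were 48.1% and 75.5%, and in wild type 62.6% and 85.1%. In the lowest class, promoter sites had 4.00% and other sites 8.79% in TgN3840 replicate 1, 28.0% and 41.7% in TgN3840 replicate 2, and 48.9% and 56.2% in wild type. Among the 100 strongest sites of either kind, RAD21 was called at 9 promoter sites and 48 other sites in TgN3840 replicate 1, at 44 and 87 in TgN3840 replicate 2 and at 60 and 89 in wild type. Restricting both groups to sites with a motif left differences of -8.99 and -18.3 points in the TgN3840 replicates and -14.4 points in wild type.

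**Figure D3:**
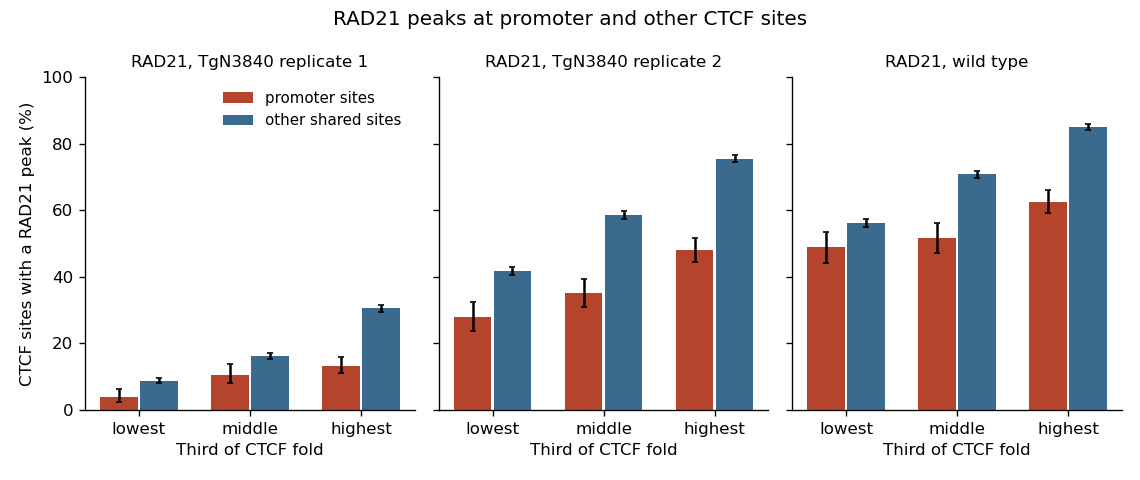
Percentage of CTCF sites with an overlapping RAD21 peak in each RAD21 list, for promoter sites (red, left) and other shared sites (blue, right) by class of CTCF fold in replicate 1, with exact 95% intervals for counting error. In all 9 pairs the promoter bar is lower, from 4.00% against 8.79% in the lowest class of TgN3840 replicate 1 to 62.6% against 85.1% in the highest class of wild type.

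The share also differed by position and base composition. In TgN3840 replicate 2, RAD21 was called at 52.9% (46.8 to 58.9%) of the 276 sites at more than 500 bp upstream and at 35.0% (30.1 to 40.1%) of the 363 sites at 1 to 100 bp upstream. In wild type these shares were 65.2% and 52.6%. Downstream of the start, the shares lay between 27.0% and 36.8% in TgN3840 replicate 2 and between 46.7% and 59.0% in wild type. Over all upstream sites RAD21 was called at 11.2% and 42.4% in TgN3840 replicates 1 and 2 and 57.2% in wild type. Over downstream sites these shares were 8.29%, 33.0% and 53.6%. The upstream and downstream intervals overlapped in TgN3840 replicate 1 and in wild type, and not in TgN3840 replicate 2. The RAD21 share was also read by CpG content. Among sites with 15 or more CpG in the window, RAD21 was called at 32.9% of 659 promoter sites and 45.8% of 406 other sites in TgN3840 replicate 2. With 5 to 14 CpG it was called at 42.0% of 773 promoter sites and 63.4% of other sites in the same list, and with 0 to 4 CpG at 45.3% of 316 promoter sites and 57.1% of other sites. In TgN3840 replicate 1 the promoter shares, for 0 to 4, 5 to 14 and 15 or more CpG, were 8.23%, 12.2% and 8.80%, against 16.6%, 24.1% and 19.2% of other sites. In wild type they were 61.7%, 59.6% and 48.9%, against 68.8%, 76.03% and 66.5% of other sites. Promoter sites had the lower share in each class of each list, and the order of the classes differed between lists and between promoter and other sites. The part of base composition in the immunoprecipitation or the peak calls was not tested.

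**Figure D4:**
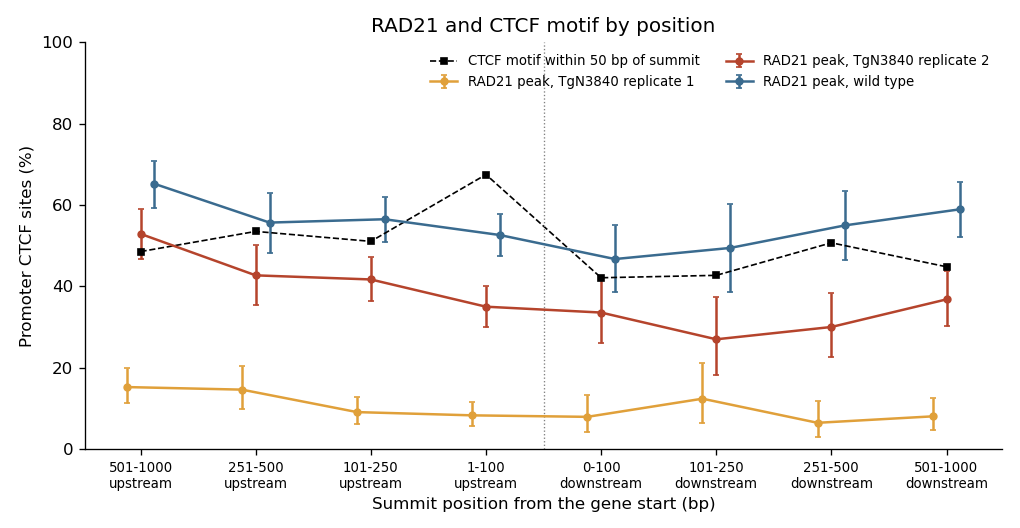
Percentage of promoter CTCF sites with a RAD21 peak in each list (circles, exact 95% intervals for counting error) and with a CTCF motif within 50 bp of the summit (black squares), by summit position relative to the gene start in bp. In TgN3840 replicate 2 the RAD21 share is 52.9% at more than 500 bp upstream and 35.0% at 1 to 100 bp upstream, where the motif share is highest at 67.5%.

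Most promoter sites with RAD21 in a shorter list also had it in a longer one. Of the 685 promoter sites with RAD21 in TgN3840 replicate 2, 630 (92.0%) also had it in wild type, against 96.6% of other sites with RAD21 in that replicate. Of the 178 in TgN3840 replicate 1, 174 (97.8%) also had it in replicate 2, against 98.8% of other sites. Of the 978 in wild type, 64.4% also had it in TgN3840 replicate 2, against 80.0% of other sites. All 3 lists shared 171 promoter sites (9.78%), against 18.1% of other shared sites. RAD21 was called in TgN3840 replicate 2 and wild type alone at 459 (26.3%), against 38.2% of other sites. It was called in none at 714 (40.8%), against 27.6% of other shared sites. RAD21 was called in wild type alone at 345 promoter sites (19.7%) and at 13.9% of other shared sites, and in TgN3840 replicate 2 alone at 52 promoter sites (2.98%) and 375 other sites (1.96%). The lengths of the lists follow the same order as these shares. When each list was limited to its 4102 peaks of best q-value, RAD21 was called at 10.2% and 9.15% of promoter sites in TgN3840 replicates 1 and 2 and 12.01% in wild type, against 18.3%, 19.6% and 19.6% of other sites. At equal length the shares of promoter sites thus lay close together, while promoter sites stayed below other sites in each list.

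Individual sites fell at either end of this range. The promoter site with the best RAD21 ranks over all 3 lists lay 831 bp upstream of S100a7a, a calcium-binding protein of the epidermis. Its RAD21 folds were 9.14 and 14.1 in TgN3840 replicates 1 and 2 and 10.9 in wild type. The CTCF folds of this site were moderate, at 6.92 and 7.51. Faap20, a component of the Fanconi anaemia core complex, had RAD21 folds of 9.26 and 13.4 in TgN3840 and 10.1 in wild type. The Wdr38 site, in an intron 608 bp downstream of the start, had 8.73 and 13.0 in TgN3840 and 11.7 in wild type. Spata20 and Ccdc110, the remaining genes of this group, had 13.9 and 14.4 in TgN3840 replicate 2 and no motif within 50 bp.

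The strongest sites without RAD21 in any list were those of Dnajc11, Hnrnpdl, Diaph1, Rab29 and Bptf. Hnrnpdl, an RNA-binding protein, had CTCF folds of 12.9 and 16.3 with a summit 659 bp downstream of its start, in a coding exon. Diaph1, a formin that nucleates actin filaments, had 12.4 and 16.8. Rab29, a small GTPase, had 11.96 and 17.29, and Bptf, the largest subunit of the NURF chromatin remodeller, had 12.7 and 16.0. These folds place each of them among the 226 strongest peaks of replicate 1 and the 206 strongest of replicate 2.

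Sites called in both TgN3840 replicates and not in wild type were rare, with 3 promoter sites (0.17%) and 5 other sites (0.026%). Usp42, a deubiquitinase gene, had RAD21 folds of 5.44 and 9.01 in TgN3840 replicates 1 and 2 and held a motif. Another was Gm10719 on chromosome 9, in repeats described below. The strongest sites called in wild type alone belonged to Sh3gl1, Nipsnap2, Srp9, Tmem44 and E130311K13Rik, with wild-type RAD21 folds of 3.03, 2.75, 3.64, 3.03 and 4.71. Of these only E130311K13Rik exceeded the wild-type promoter median of 4.53.

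Gene classes differed in how often they had a promoter CTCF site, read against 8.77% of all autosomal protein-coding genes. Among 79 cytosolic ribosomal protein genes, 19 had a site (24.1%, 15.1 to 35.0%). The strongest were those of Rps3a1 at 8 bp, with CTCF folds of 13.3 and 14.1, Rpl36 at -84 bp, with 10.7 and 16.0, and Rpl5 at -61 bp, with 9.83 and 17.6. None of these 3 had RAD21 in any list. Of the 19, RAD21 was called at 0 and 4 in TgN3840 replicates 1 and 2 and at 5 in wild type. Of all genes with a site it was called at 10.2%, 39.75% and 56.3%. Among the 4 were Rpl10a, Rpl11 and Rpl7l1, with RAD21 folds of 5.11, 4.84 and 6.79 in TgN3840 replicate 2. These starts were CpG-rich, with a median of 16 CpG in the window around them. Of the 23 ribosomal protein genes in the class with the most CpG, 7 had a site (30.4%), against 13.4% of all genes in that class.

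Genes of mitochondria and of other housekeeping complexes were mixed. Sites were present at 12 of 78 mitochondrial ribosomal protein genes (15.4%), among them Mrps33, Mrps16 and Mrpl34, and at 14 of 89 genes of the respiratory chain and ATP synthase (15.7%), among them Atp5mpl, Ndufaf4 and Ndufa6. Of the 12, RAD21 was called at 0 and 5 in TgN3840 replicates 1 and 2 and at 6 in wild type. Of the 14, it was called at 0 and 3 in TgN3840 replicates 1 and 2 and at 7 in wild type. All genes with a site gave 10.2%, 39.75% and 56.3%. The Ndufa6 site, of a complex I subunit, had CTCF folds of 11.4 and 14.7 and RAD21 folds of 6.36 in TgN3840 replicate 2 and 6.06 in wild type. Proteasome subunits had 4 of 38 (10.5%), of which Psmc4 alone had RAD21, in all 3 lists. Translation initiation and elongation factors had 6 of 65 (9.23%), cyclins and cyclin-dependent kinases 6 of 36 (16.7%), and replication-dependent histones 4 of 67 (5.97%). The exact interval contained 8.77% for each of these lists except the respiratory chain, whose interval of 8.88 to 24.98% began just above it. That list also holds Ndufaf3, Ndufaf4 and Ndufaf6, which are assembly factors of complex I and not subunits. The lists were chosen with earlier results known, so none of them is set apart from all genes by these intervals.

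Genes of loop formation were themselves represented. Of 18 genes for cohesin, its regulators and CTCF, 5 had a site (27.8%, 9.70 to 53.5%). The site of Pds5b, a cohesin-associated regulator, had CTCF folds of 10.4 and 12.9, and RAD21 folds of 7.88 in TgN3840 replicate 2 and 8.40 in wild type. Esco1, the acetyltransferase of the cohesin ring, had 10.6 and 11.4 and no RAD21 peak. Smc3, a ring subunit, had CTCF folds of 8.05 and 7.45 and a weak wild-type RAD21 peak of 3.36. The site of Ctcf itself lay 280 bp into its gene, with CTCF folds of 8.28 and 6.61. It had a motif on the strand opposite to the gene and no RAD21 peak. It also lay within 1000 bp of where the gene record of Agrp starts, which need not be the Agrp promoter in use. Pds5a had folds of 4.83 and 4.33.

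Of 39 Hox genes, which set positional identity along the body axes and in the limb, 6 had a site (15.4%, 5.86 to 30.5%), in 3 genes of HoxA, 1 of HoxB, 2 of HoxC and 0 of 9 genes of HoxD. The gene records of Hoxc10 and Hoxc5 both start within 1000 bp of 1 site, so there were 5 sites. A gene record begins at its outermost transcript, so this site need not lie at the Hoxc5 promoter in use. RAD21 was called at 1 gene in TgN3840 replicate 1, at 5 of the 6 in TgN3840 replicate 2 and at 5 in wild type. All genes with a site gave 10.2%, 39.75% and 56.3%. Nothing is read from so few sites. The Hoxa7 site, 60 bp upstream, had CTCF folds of 7.06 and 14.6, and RAD21 folds of 8.48 in TgN3840 replicate 2 and 10.4 in wild type. The Hoxb5 site had RAD21 folds of 7.16 and 6.76 in TgN3840 and 6.67 in wild type, while Hoxa10 had CTCF folds of 7.57 and 13.0 and no RAD21. Neither Hoxa7 nor Hoxb5 had a motif within 50 bp of the summit. Of 42 limb patterning genes, 4 had a site (9.52%), namely Gli1 and Gli2, transcription factors of Hedgehog signalling, Fgf4, a growth factor of the apical ectodermal ridge, and Wnt7a, a signal of the dorsal ectoderm. Their CTCF folds lay between 4.99 and 8.59 in replicate 1, and RAD21 was called at 0 and 1 in TgN3840 replicates 1 and 2 and at 3 in wild type. The Wnt7a site was the one with RAD21 in TgN3840, with folds of 7.06 in replicate 2 and 6.24 in wild type.

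All 3 collagen genes with a site, of 42 genes (7.14%), had RAD21 in all 3 lists, as did 9.78% of all promoter sites, and 3 genes are too few to describe the family. Col1a1, a chain of type I collagen of bone and connective tissue, had its summit in an intron 900 bp downstream of the start. It had CTCF folds of 6.09 and 7.37, and RAD21 folds of 7.03 and 13.7 in TgN3840 and 9.33 in wild type. Col6a2 had 4.96 and 10.1 in TgN3840 and 7.18 in wild type, and Col23a1 6.37 and 9.75 in TgN3840 and 9.25 in wild type. Olfactory receptors had 4 of 1087 (0.37%), vomeronasal receptors 0 of 326, which allows up to 1.13% by the exact interval, and keratins 0 of 53, which allows up to 6.72%. Starts of both receptor families held a median of 1 CpG in this window. Clustered protocadherins, cell-surface proteins whose alternative promoters are known CTCF targets, had 3 of 57 (5.26%), with RAD21 at 1 and 2 in TgN3840 replicates 1 and 2 and 3 in wild type. Zinc finger genes named Zfp had 32 of 385 (8.31%), with RAD21 at 4 and 4 in the TgN3840 replicates and 14 in wild type. Of all genes with a site, RAD21 was called at 10.2% and 39.75% in TgN3840 replicates 1 and 2 and 56.3% in wild type. The Zfp share was thus lower in TgN3840 replicate 2 and, at 43.75%, in wild type, but not in TgN3840 replicate 1. These differences were not tested, and 3 protocadherin genes are too few to compare. Imprinted protein-coding genes had 3 of 33, of which Peg10 and Sgce shared 1 site.

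**Figure D5:**
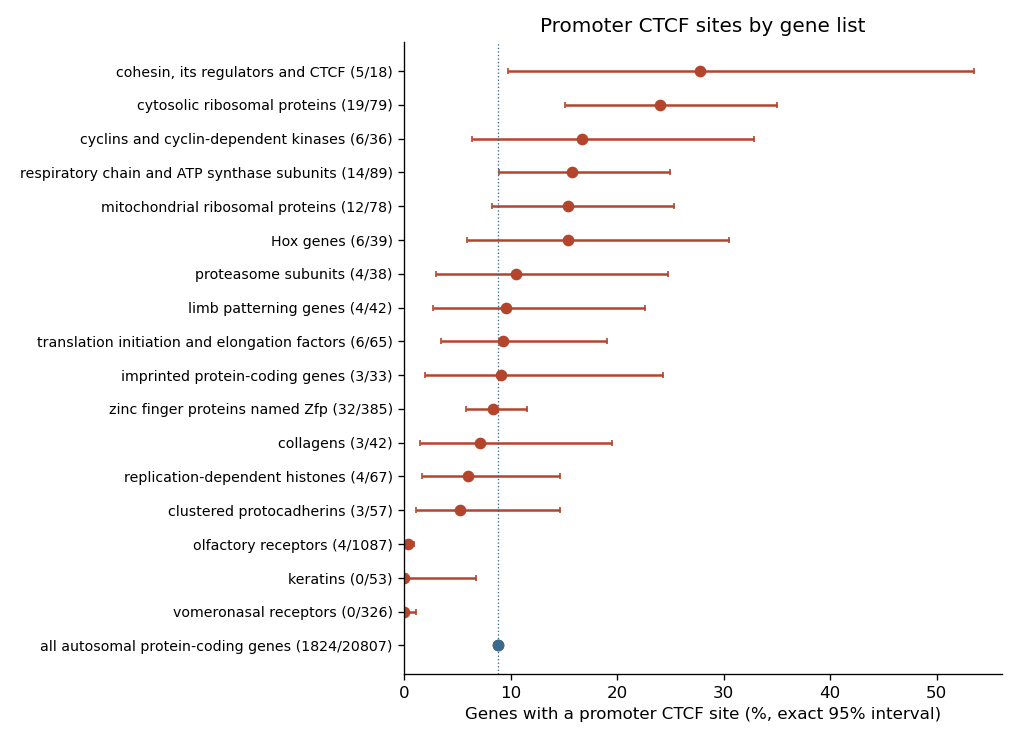
Percentage of the genes of each list with a promoter CTCF site, with exact 95% intervals for counting error and the counts in parentheses. The dotted line and the blue point in the last row mark all autosomal protein-coding genes (8.77%). Cytosolic ribosomal protein genes lie at 24.1%, and olfactory and vomeronasal receptors lie near 0.

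A single site was the rule, as 1778 of the 1824 genes had 1 and 46 had 2. Sites were counted as peaks of replicate 1. In some pairs both had the same fold and rank in replicate 2, as at Bdh2, Vps13d and Srcin1. Such pairs may match 1 peak of replicate 2. Neighbouring genes such as Islr and Islr2 each counted the same pair, so the 46 genes are not 46 separate pairs. Summits of a pair were a median of 560 bp apart, between 183 and 1795 bp, and in 25 of the 46 they lay on either side of the start. Both sites had a motif in 11 genes, on opposite strands in 6 of them, as in Tor2a, Rhof, Nectin2 and Socs1. RAD21 in TgN3840 replicate 2 was called at neither site in 22 genes, at 1 site in 17 and at both in 7. Over all promoter sites, 39.2% had RAD21 in that list and 52.3% had a motif. The counts are thus not read as traits of genes with 2 sites. At Bdh2 and Hook2 both sites had the same RAD21 fold in that list, 10.3 and 4.66, so 1 RAD21 peak may span both. At Rhof, a small GTPase gene, the site 896 bp upstream had RAD21 folds of 4.99 and 7.45 in TgN3840 and 8.12 in wild type, and the site 269 bp upstream had none in TgN3840 and 3.12 in wild type. The sites of one promoter could thus differ in RAD21 within the same libraries.

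A group of 6 promoter sites lay in the first 4 Mb of chromosome 9. They belonged to Gm10717, Gm10719, Gm10722, Gm10715 and Cwf19l2, lay in sequence that is mostly repeat-masked and had no motif. The Gm10717 site had CTCF folds of 19.02 and 18.86, and RAD21 folds of 18.7 and 15.9 in TgN3840 and 4.54 in wild type. RAD21 was called at 5 and 4 of these 6 in TgN3840 replicates 1 and 2 and at 4 in wild type. Reads from repeats and from near-identical gene copies may be placed at any copy, so these values are uncertain. Without these 6 sites, the RAD21 shares of promoter sites were 9.93% and 39.1% in TgN3840 and 55.9% in wild type. Such sites were not confined to chromosome 9. Both sites of Gm21738 on chromosome 14, kept in these shares, were 92.5% and 91.5% repeat-masked and had no motif. Both had RAD21 in TgN3840 replicate 1 and in wild type. In all, 44 promoter sites (2.52%) were mostly repeat-masked, against 8.00% of other sites.

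The 1000 bp limit cut through a continuous distribution. Just inside it lay the sites of Socs1 at -1000 bp, with CTCF folds of 5.87 and 11.8, and Apob at 1000 bp, with 7.81 and 8.60. Tldc1 and Spsb2 lay 1 bp beyond the limit, upstream with 5.79 and 8.93 and downstream with 6.37 and 7.51. Btg1, the gene of the domain that received the transgene, had no promoter site by this rule, since the nearest shared summit lay 1399 bp downstream of its start, with CTCF folds of 4.37 and 4.84.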

How the data were processed

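Chromatin from E12.5 whole limbs was profiled by ChIPmentation with 50 bp single-end reads. Reads were aligned by the authors to mm10, and separately to a custom genome with the transgene, and MACS2 at default settings gave a peak list per replicate. Tools named in the submitters' processing notes are MACS2 2.1.1.20160309, Bowtie2 2.3.4.1 and 2.3.5, cutadapt 1.16, SAMtools 1.9 and Picard 2.19. For each peak the authors deposited a fold enrichment (a ratio of the summit pileup to the local expectation), a summit position, and -log10 values of p and q (p-values and q-values). Every q was under 0.05. The control used in peak calling is not given in the sources used here, and depth is unknown. Input libraries were not used, nor were the custom genome lists, except as an alternative without chromosomes 2 and 10. The wild-type RAD21 list matches no sample of the series and was used as the authors' values of 1 library. Replicate numbers are those of the deposited lists.

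Promoter sites and their overlaps with RAD21 peaks (at least 1 bp) were computed in Python 3.11.15 with numpy 2.4.6, pandas 2.3.3, scipy 1.17.1 and pysam 0.24.0, and checked on simulated data. Shares have exact Clopper-Pearson 95% intervals. Gene starts came from GENCODE M21 and sequence from GRCm38. The 19-bp model of the CTCF motif came from 2000 shared sites over 10 kb from any protein-coding start and outside chromosomes 2, 10 and 18. No sequence of chromosome 18 is printed. The motif model differs from the matrix the authors used.

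Named genes were the 10 best by mean CTCF rank, up to 3 per gene list, the 5 strongest without RAD21, the 5 best-ranked with RAD21 in all lists, up to 5 with RAD21 in TgN3840 alone or wild type alone, the sites at the distance limit and genes with 2 sites. Others named were members of small classes or examples, chosen after their values were seen. The sites and the 17 gene lists were chosen with earlier results of these data known, so list counts are descriptions. Alternatives were the CTCF and RAD21 thresholds, the overlap rule, the distance, the start used, single replicates, the custom genome, list length and the motif settings. Some genes and sequences that the naming rule covers are not reported here.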

Additional observations from a re-analysis of the deposited data

How the results depend on the processing

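The number of promoter sites stayed within 1.5 times of 1748 under each alternative tried, between 1260 with summits within 500 bp and 2185 with the starts of all protein-coding transcripts. With single CTCF replicates it was 1974 to 2101, and RAD21 was then called at 8.52 to 9.17% and 34.5 to 35.7% of sites in TgN3840 replicates 1 and 2 and at 51.1 to 52.5% in wild type, the upstream share was 64.0 to 65.1% and the motif share 50.6 to 63.4%. With CTCF peaks of -log10 q of at least 5, RAD21 shares were 11.9% and 42.6% in TgN3840 and 58.7% in wild type, the upstream share was 68.5% and the motif share 54.7%. Within 500 bp, RAD21 shares were 36.6% in TgN3840 replicate 2 and 53.4% in wild type, and 69.8% of sites lay upstream. With CTCF sites from the custom genome lists without chromosomes 2 and 10, the RAD21 share was 53.1% in the wild-type list, which was on mm10. RAD21 peaks of -log10 q of at least 5 gave 5.43% and 30.2% in TgN3840. Lists cut to the length of the shortest gave 9.15% in TgN3840 replicate 2 and 12.01% in wild type. The motif share was 37.9% at the stricter score and 73.8% within 100 bp of the summit. The difference between promoter and other sites in RAD21 share was recomputed under alternatives chosen after seeing the data, and it stayed negative in each list, between -4.62 and -19.2 points. The causes were not tested, and shares depend on what each list called at an unknown depth. No paired analysis was possible because the replicate numbers only name the lists and the results come from no test.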
